A study of Mus musculus with 12 samples.

Results

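The small heat shock proteins of muscle described here are the products of 6 genes, Cryab, Hspb1, Hspb2, Hspb3, Hspb7 and Hspb8. They were chosen by symbol, and each was found once among the 33641 genes listed for every sample. All 6 averaged 0.5 TPM or more and were among the 12526 genes tested. TPM is a length-scaled measure of transcript abundance, in which the values of a sample sum to 1000000. Small heat shock proteins are chaperones that need no ATP. They share an alpha-crystallin domain, assemble into oligomers and hold partly unfolded proteins in a soluble state until the ATP-driven HSP70 chaperones refold them or hand them on for degradation. In heart muscle their known clients include desmin, titin and filamin C, and mutations in several of these genes cause human myopathy, cardiomyopathy or neuropathy.

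RNA was sequenced from the left ventricle (LV) and the right ventricle (RV) of knock-in mice in which the coding sequence of phospholamban, the inhibitor of the calcium pump of the sarcoplasmic reticulum, was replaced by the human one. WT-PLN mice carried the human wild-type sequence and R14del-PLN mice carried it without the codon of arginine 14. By the methods the mutant mice were heterozygous, with a human wild-type copy beside the mutant one. The 4 groups, LV WT-PLN, RV WT-PLN, LV R14del-PLN and RV R14del-PLN, held 3 samples each. All mice were 12 to 14 weeks old. The labels give the strain as C57BL/6J, while the methods describe a hybrid line from 129/Sv-CP and C57Bl/6J chimeras bred to Sox2-Cre mice, in which Cre acts in the early embryo and not in the heart alone. The titles of the mutant samples call them KO, but their genotype is given as R14del-PLN.

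Cardiomyocyte markers summed to between 38555 and 57939 TPM in every sample, and fast skeletal muscle markers to no more than 3.55 TPM. Some samples stood apart. The methods state that male mice were used, yet 4 genes of the Y chromosome (Ddx3y, Kdm5d, Uty and Eif2s3y) were at 0.0159 to 0.191 TPM in both WT-PLN samples numbered 1, against 3.03 to 30.6 TPM in the other 10. The 13 mitochondrially encoded genes made up 37.3% of all transcripts in LV R14del-PLN replicate 3 and 44.0% to 54.5% in the others, and RV R14del-PLN replicate 3 carries another sequencing run number than the other 11. In LV WT-PLN replicate 3, 6 smooth muscle markers summed to 396 TPM and 5 atrial markers to 1296 TPM, against 150 to 241 TPM and 45.6 to 871 TPM in the other samples. The 871 TPM was of RV WT-PLN replicate 2, and RV R14del-PLN replicate 2 had an atrial sum of 521 TPM. In that RV WT-PLN sample Sln, Myl7 and Myl4 were at 36.9, 320 and 302 TPM. LV WT-PLN replicate 3 had 27.8, 299 and 247 TPM of them, and its higher sum came with Nppa (722 against 213 TPM). Differences that moved most without the WT-PLN samples numbered 1 or replicate 3 of LV WT-PLN, LV R14del-PLN or RV R14del-PLN are given both ways.

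**Figure D1:**
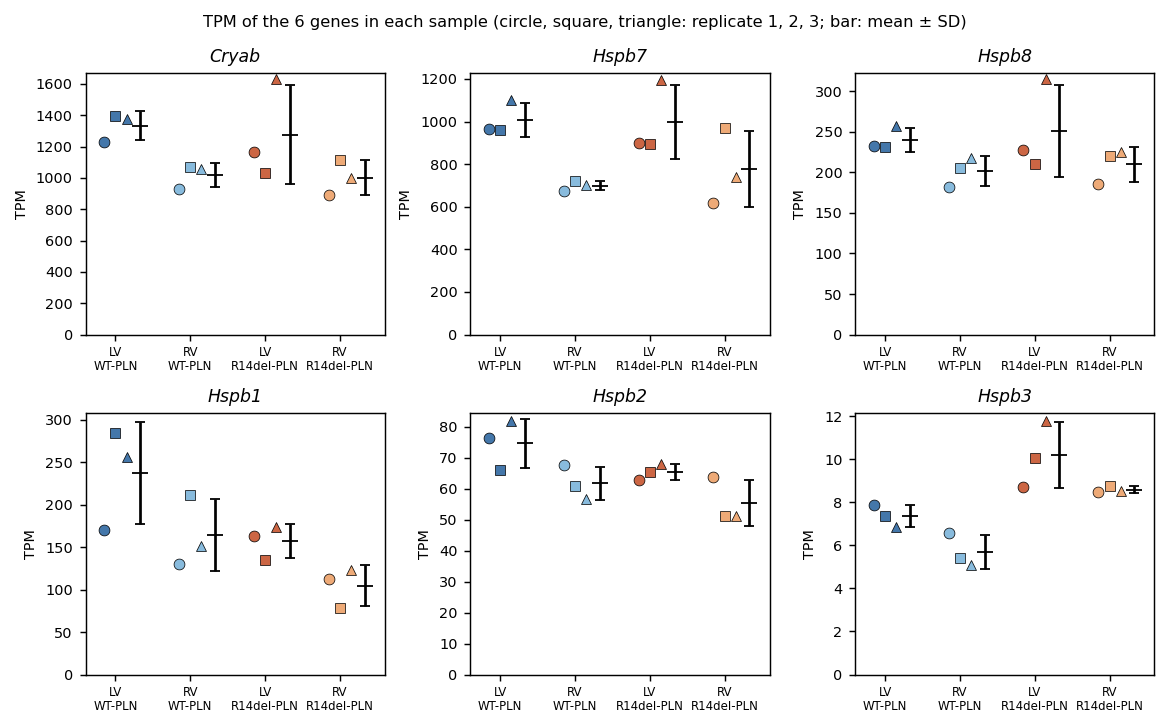
TPM (y axes, from 0) of the 6 genes in the 3 samples of each group (x axes), with circles, squares and triangles for replicates 1, 2 and 3 and a bar for the mean ± SD. The 6 R14del-PLN samples lie between 8.46 and 11.8 TPM for Hspb3, above all 6 WT-PLN samples, while the groups overlap between genotypes for Cryab, Hspb2, Hspb7 and Hspb8.

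The 6 genes differed widely in TPM, a scale that can be compared between genes because it is per length. Cryab, which encodes alphaB-crystallin, the chaperone of desmin and titin, had a mean of 1158 TPM over the 12 samples and ranked 48 of all genes listed. Hspb7, a cardiovascular member that associates with filamin C and the thin filament, had a mean of 870 TPM (rank 70). Hspb8, which works with Bag3 in chaperone-assisted autophagy of damaged sarcomere proteins, was at 226 TPM (rank 288), and Hspb1, the stress-inducible HSP25 of the mouse, at 166 TPM (rank 370). Hspb2, also named MKBP for its binding to myotonic dystrophy protein kinase, was at 64.4 TPM (rank 847). Hspb3, which forms a complex with HSPB2 in muscle, was at 7.96 TPM (rank 5201). Each gene exceeded the next one down in 12 of 12 samples, apart from Hspb8 over Hspb1, which held in 10 of 12 samples. The ratio of Hspb8 to Hspb1 ran from 0.810 to 2.82 across samples, so these neighbours in the order were not separated by more than their spread.

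Together the 6 genes made up 2901 ± 202 TPM in LV WT-PLN, 2152 ± 147 TPM in RV WT-PLN, 2757 ± 561 TPM in LV R14del-PLN and 2158 ± 283 TPM in RV R14del-PLN (SD, n = 3 each). The LV R14del-PLN samples were at 2524, 2350 and 3397 TPM, so the wide spread of that group came with replicate 3. Cryab supplied 43.9% to 48.3% of that sum in a sample and Hspb7 31.7% to 39.7%, whereas Hspb3 supplied 0.223% to 0.450%. The mean RV sum was lower than the mean LV sum in both genotypes, and in R14del-PLN 1 RV sample, at 2446 TPM, exceeded 1 LV sample.

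R14del-PLN was first compared with WT-PLN within each ventricle. None of the 6 genes was called by limma with Benjamini-Hochberg adjustment over all tested genes. A call needs an adjusted p no larger than 0.05 together with a 1.5-fold difference in TPM + 1. By this rule 0.519% of tested genes were called in LV (65 genes) and 0.271% in RV (34 genes). At an unadjusted p of at most 0.05, 2 of the 6 genes passed in each ventricle, Hspb3 with a higher level and Hspb1 with a lower level in R14del-PLN. The corresponding share of all tested genes was 9.6% in LV and 6.22% in RV. For the other 4 genes the differences lay between -0.18 and 0.13 on the log2(TPM + 1) scale. The p-values measure the spread between these samples, and the labels do not say that the samples of a group came from separate mice.

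Hspb3 was the member with the smallest p in both ventricles. Its promoter is shown because it and Hspb1 are the members that differed most between genotypes. The window is the 250 bases before the start of the gene (RefSeq, GRCm38.p6, minus strand, chr13:113663677-113663926), and capitals mark matches to the motifs described with Hspb1.

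Hspb3 promoter: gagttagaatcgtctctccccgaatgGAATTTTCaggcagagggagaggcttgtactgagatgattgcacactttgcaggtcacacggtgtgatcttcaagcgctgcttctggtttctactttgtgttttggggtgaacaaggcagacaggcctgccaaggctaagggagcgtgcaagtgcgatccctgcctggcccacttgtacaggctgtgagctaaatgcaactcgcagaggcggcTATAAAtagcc

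The Hspb3 gene lies on chromosome 13 of GRCm38 from 113662896 to 113663676 on the minus strand and overlaps no other annotated gene. In LV WT-PLN, Hspb3 was at 7.87, 7.37 and 6.85 TPM in replicates 1, 2 and 3, and in LV R14del-PLN at 8.71, 10.1 and 11.8 TPM. In RV WT-PLN it was at 6.56, 5.43 and 5.07 TPM, and in RV R14del-PLN at 8.46, 8.77 and 8.54 TPM. Every R14del-PLN sample was therefore above every WT-PLN sample, within each ventricle and also across both. Among all tested genes, 2.48% were higher in R14del-PLN with no overlap in LV, 5.19% in RV, and 0.687% (86 genes) when the 6 R14del-PLN samples were set against the 6 WT-PLN samples.

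The difference in Hspb3 was 0.41 ± 0.13 (log2, SE; 95% interval 0.13 to 0.70) in LV, with an adjusted p of 0.272 in limma. In RV it was 0.53 ± 0.13 (95% interval 0.24 to 0.81), a fold change of 1.44 in TPM + 1, with a limma adjusted p of 0.165. The RV group means themselves were 8.59 TPM in R14del-PLN and 5.69 TPM in WT-PLN, and the added 1 lowers the fold change. The sign of the difference was the same under all 26 alternatives in each ventricle. With mitochondrially encoded genes removed and each sample rescaled, the RV difference was 0.60 with an adjusted p of 0.0495, which passed the threshold, and the LV difference was 0.45 with an adjusted p of 0.120. Without LV R14del-PLN replicate 3 the LV difference was 0.31, without LV WT-PLN replicate 3 it was 0.37, and without RV R14del-PLN replicate 3 the RV difference was 0.53. Without both WT-PLN samples numbered 1 it was 0.46 in LV and 0.62 in RV. In bulk samples, fewer cells of a type and less RNA per cell cannot be told apart, and this holds for every level given here.

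Hspb1 went the other way. Its promoter is shown because it held the most matches to the paired binding unit of heat shock factors among the 4 members with a sequence (RefSeq, GRCm38.p6, plus strand, chr5:135887669-135887918, 250 bases before the start).

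Hspb1 promoter: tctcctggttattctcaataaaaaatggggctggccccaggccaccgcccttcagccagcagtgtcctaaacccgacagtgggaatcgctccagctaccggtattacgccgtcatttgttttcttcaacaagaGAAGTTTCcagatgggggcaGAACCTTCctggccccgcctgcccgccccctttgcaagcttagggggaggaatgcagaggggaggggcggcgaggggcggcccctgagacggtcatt

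Heat shock factors bind inverted repeats of the unit GAA. Paired units were searched on both strands as GAANNTTC and TTCNNGAA, 3 units in a row as GAANNTTC followed by NNGAA, which contains both pairs, and the TATA box as TATAAA. Hspb1 held GAAGTTTC and GAACCTTC, beginning 117 and 97 bases before the start, and Hspb3 held GAATTTTC at 224 and TATAAA at 11 bases before the start. Of 32851 mouse promoters of the same length, 6.69% held GAANNTTC, 7.17% TTCNNGAA, 0.466% the 3 units and 12.4% TATAAA. Hspb7 and Hspb8 held none of these letters in the window, and none of the 4 promoters held 3 units. The matches are descriptions of sequence, and binding was not measured. Promoters of Cryab and Hspb2 were not analysed here.

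The Hspb1 gene lies on chromosome 5 from 135887919 to 135889563 on the plus strand. In LV, Hspb1 was at 170, 285 and 256 TPM in WT-PLN replicates 1, 2 and 3 and at 162, 135 and 174 TPM in R14del-PLN. In RV it was at 130, 212 and 151 TPM in WT-PLN and at 113, 77.8 and 123 TPM in R14del-PLN. In LV the groups overlapped through WT-PLN replicate 1, which lay below the highest R14del-PLN sample. In RV all R14del-PLN samples were below all WT-PLN samples, as were 5.79% of tested genes.

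Hspb1 differed by -0.56 ± 0.23 (log2, SE; 95% interval -1.06 to -0.07) in LV, with an adjusted p of 0.441 in limma, and by -0.64 ± 0.23 (95% interval -1.14 to -0.15) in RV, with an adjusted p of 0.552. The sign was negative under all 26 alternatives in each ventricle, from -0.79 to -0.41 in LV and from -0.79 to -0.44 in RV. The smallest differences, -0.41 and -0.44, came without LV WT-PLN replicate 2 and without RV R14del-PLN replicate 2. Over these alternatives the limma adjusted p ran from 0.107 to 0.945 in LV and was 0.193 or more in RV. Without LV WT-PLN replicate 3 the LV difference was -0.49. Without both WT-PLN samples numbered 1 the differences were -0.79 in LV (adjusted p 0.107) and -0.79 in RV (adjusted p 0.193). Hspb1 has 1 near-identical copy, the processed pseudogene Hsp25-ps1 on chromosome 13, with 99.4% identity over its full length. It was listed at 0 to 0.617 TPM, at most 0.409% of Hspb1 in the same sample.

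When the LV and RV samples with the same number were averaged, an arrangement chosen after the values were seen, none of the 6 genes was called, against 0.758% of tested genes (95 genes). The numbers were not taken as pairs in R14del-PLN, so an average there may mix mice. Hspb3 differed by 0.47 (95% interval 0.23 to 0.71, limma adjusted p 0.117) and Hspb1 by -0.60 (95% interval -1.02 to -0.18, adjusted p 0.239). Leaving out WT-PLN number 1 gave -0.79 for Hspb1 with a limma adjusted p of 0.0375, past both thresholds. For Hspb3 it gave 0.54 with an adjusted p of 0.0359 but a fold change of TPM + 1 below 1.5. The added 1 lowers the fold change of a gene as low as Hspb3. Number 1 held the lowest WT-PLN values of Hspb1 and the highest of Hspb3 in both ventricles, so leaving it out widened both differences. Leaving out any other number gave adjusted p-values of 0.130 or more for Hspb3 and 0.274 or more for Hspb1.

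**Figure D2:**
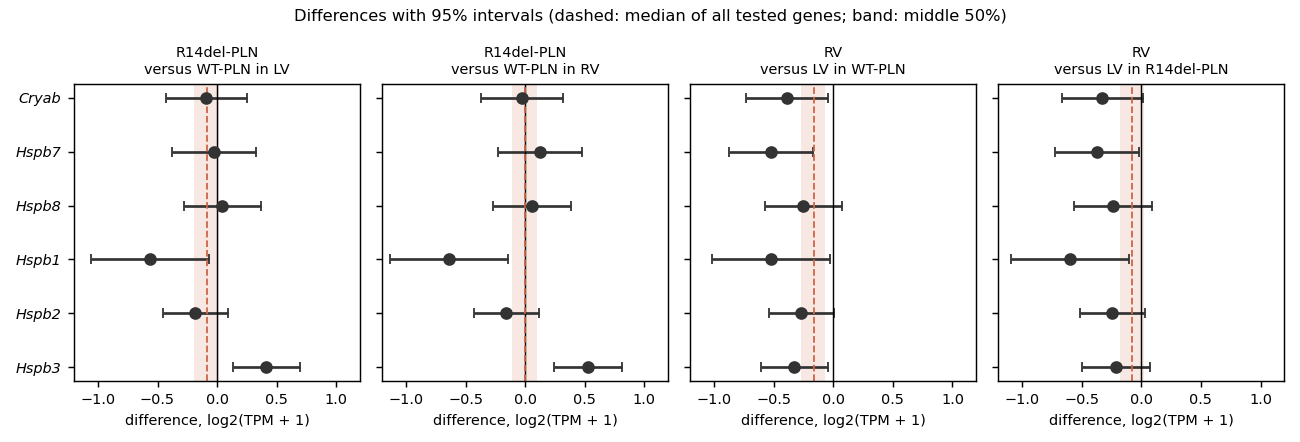
Differences on the log2(TPM + 1) scale (x axes) for the 6 genes (rows) in 4 comparisons, with limma's 95% intervals, beside the median (dashed line) and the middle 50% (band) of all 12526 tested genes. Hspb3 lies above 0 and Hspb1 below 0 in both genotype comparisons, and all 6 genes lie below 0 in both ventricle comparisons, where the median of all genes is also below 0.

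The abundant members did not follow either gene. Cryab was at 1231, 1398 and 1375 TPM in LV WT-PLN and at 1163, 1033 and 1631 TPM in LV R14del-PLN. In RV it was at 928, 1072 and 1057 TPM in WT-PLN and at 892, 1118 and 998 TPM in R14del-PLN. The genotypes overlapped in both ventricles, and the highest value of all was LV R14del-PLN replicate 3, the sample with the smallest mitochondrial share. The difference was -0.09 (95% interval -0.43 to 0.25) in LV and -0.03 (95% interval -0.37 to 0.32) in RV. Without LV R14del-PLN replicate 3 it was -0.28 in LV, with an adjusted p of 0.248 in limma.

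Hspb7 was at 963, 962 and 1099 TPM in LV WT-PLN and at 898, 897 and 1197 TPM in LV R14del-PLN. In RV it was at 676, 721 and 701 TPM in WT-PLN and at 618, 971 and 740 TPM in R14del-PLN. The RV samples of R14del-PLN lay on both sides of the narrow WT-PLN range, with replicate 2 far above it. The difference was -0.03 (95% interval -0.38 to 0.32) in LV and 0.13 (95% interval -0.22 to 0.48) in RV, where it was -0.05 without RV R14del-PLN replicate 2.

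Hspb8 was at 232, 231 and 257 TPM in LV WT-PLN and at 228, 210 and 316 TPM in LV R14del-PLN. In RV it was at 182, 205 and 218 TPM in WT-PLN and at 185, 220 and 225 TPM in R14del-PLN. The genotypes overlapped in both ventricles, and LV R14del-PLN replicate 3 was again the highest. The difference was 0.04 (95% interval -0.28 to 0.37) in LV, which became -0.13 without that sample, and 0.06 (95% interval -0.27 to 0.38) in RV.

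Hspb2 was at 76.4, 66.1 and 81.8 TPM in LV WT-PLN and at 63.0, 65.5 and 67.9 TPM in LV R14del-PLN. In RV it was at 67.6, 61.0 and 56.8 TPM in WT-PLN and at 64.0, 51.1 and 51.2 TPM in R14del-PLN. The ranges overlapped in both ventricles. The difference was -0.18 (95% interval -0.46 to 0.09) in LV and -0.16 (95% interval -0.43 to 0.11) in RV, and it stayed below 0 under all 26 alternatives in each, from -0.27 to -0.06 in LV and from -0.26 to -0.09 in RV. In LV it was -0.06 after quantile normalization and after upper quartile scaling, and -0.12 without LV WT-PLN replicate 3. The RV difference was -0.09 without WT-PLN replicate 1, -0.26 without R14del-PLN replicate 1 and -0.11 without R14del-PLN replicate 2. For these 4 genes the intervals leave room for changes in either direction, so equal levels are not shown.

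Once mitochondrially encoded genes were removed and samples rescaled, LV R14del-PLN replicate 3 came closer to the others. On that scale Cryab was at 2356 ± 261 TPM in LV R14del-PLN and 2472 ± 174 TPM in LV WT-PLN, Hspb7 at 1853 ± 51.5 TPM and 1865 ± 86.7 TPM, and Hspb8 at 464 ± 39.9 TPM and 444 ± 13.4 TPM (SD, n = 3 each). Hspb3 on the same scale was at 19.0 ± 1.23 TPM in LV R14del-PLN and 13.7 ± 1.28 TPM in LV WT-PLN, and at 18.0 ± 0.692 TPM in RV R14del-PLN and 11.6 ± 2.04 TPM in RV WT-PLN. The lowest R14del-PLN sample, at 17.4 TPM, remained above the highest WT-PLN sample, at 14.7 TPM.

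The second question was how the ventricles compare within a genotype. No member was called in RV against LV in WT-PLN or in R14del-PLN, and limma called 0.0% of all tested genes in both, although 1811 genes (14.5%) and 823 genes (6.57%) had an unadjusted p of at most 0.05. With the replicate number as a block, limma called 12 genes in WT-PLN, none of them a member. In WT-PLN only Hspb1 had its smallest limma adjusted p of all alternatives under the block (0.152, against 0.324 without it). The differences, intervals and p-values that follow are from the fit without pairs, although same-numbered WT-PLN samples were correlated. At the unadjusted p of that fit, 4 members passed in WT-PLN and 2 in R14del-PLN. All 6 members were lower in RV in both genotypes, by -0.25 to -0.52 in WT-PLN and by -0.21 to -0.60 in R14del-PLN (log2). These values stand beside a shift of all genes, whose median difference was -0.17 for WT-PLN and -0.08 for R14del-PLN hearts, with 85.9% and 70.3% of genes below 0. Relative to that median the members lay at -0.08 to -0.36 in WT-PLN and at -0.14 to -0.52 in R14del-PLN.

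In WT-PLN hearts, Hspb7 had the smallest p of the 6, at 699 ± 22.8 TPM in RV against 1008 ± 78.9 TPM in LV (SD, n = 3 each). Its difference was -0.52 ± 0.16 (log2, SE; 95% interval -0.88 to -0.17), with an adjusted p of 0.252 in limma. Without both WT-PLN samples numbered 1 it was -0.53, and the 6 members lay between -0.59 and -0.20. Without LV WT-PLN replicate 3 it was -0.46, and they lay between -0.46 and -0.20. Cryab, Hspb3, Hspb7 and Hspb8 were lower in every RV sample than in every LV sample, and so were 25.2% of all tested genes. Hspb1 and Hspb2 overlapped between ventricles, as Hspb1 averaged 164 ± 42.2 TPM in RV and 237 ± 59.8 TPM in LV, and Hspb2 61.8 ± 5.40 TPM and 74.8 ± 7.94 TPM (SD, n = 3).

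In R14del-PLN hearts, Hspb1 was the member with the smallest p, at 105 ± 23.9 TPM in RV against 157 ± 19.99 TPM in LV (SD, n = 3 each). It differed by -0.60 ± 0.23 (95% interval -1.09 to -0.10), with an adjusted p of 0.737 in limma, and it was the 1 member with no overlap, as were 8.72% of tested genes. Only 0.798% of tested genes had a lower log2 difference than Hspb1 here. Without RV R14del-PLN replicate 3, the sample of the other run, it differed by -0.73. Without LV R14del-PLN replicate 3, the differences of Cryab, Hspb7, Hspb3 and Hspb8 shrank from -0.33, -0.37, -0.21 and -0.24 to -0.13, -0.23, -0.11 and -0.06. Without RV R14del-PLN replicate 1, those of Hspb7 and Hspb8 were -0.22 and -0.15.

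The size of these ventricle differences depended on how samples were scaled, and the mitochondrial share was 48.7% to 54.5% in RV samples, against 37.3% to 51.2% in LV samples. In WT-PLN, Cryab differed by -0.39 as deposited, -0.25 without mitochondrially encoded genes, -0.20 after upper quartile scaling and -0.17 after quantile normalization. Hspb8 went from -0.25 as deposited to -0.03 after quantile normalization. The sign stayed below 0 for all 6 members in both genotypes under each of these scalings, and the part of the mitochondrial share in the differences was not tested beyond them.

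**Figure D3:**
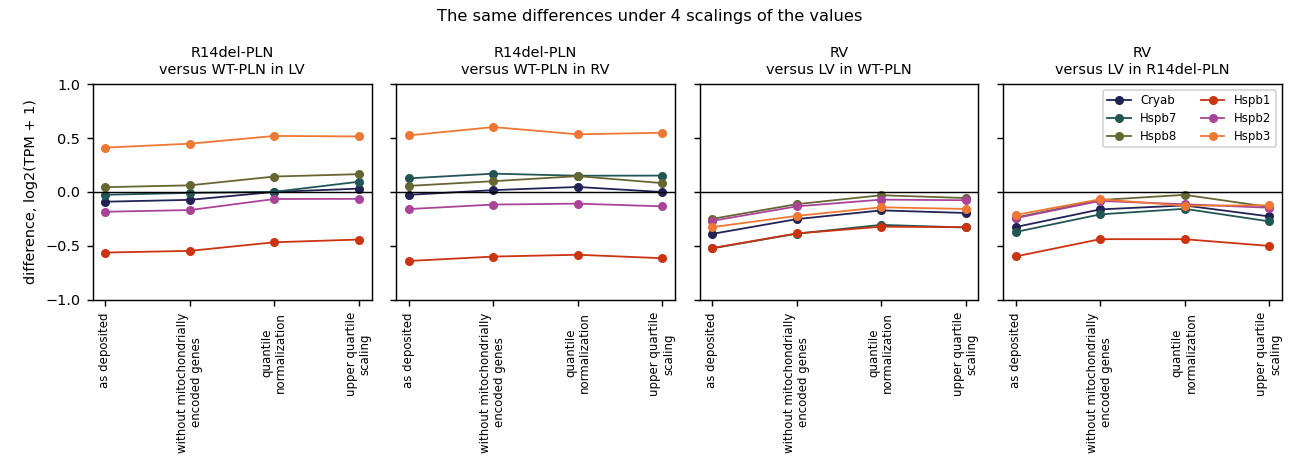
Differences on the log2(TPM + 1) scale (y axes) of the 6 genes in 4 comparisons under 4 scalings of the values (x axes). The lines for Hspb3 and Hspb1 stay apart from the other genes in both genotype comparisons, while in both ventricle comparisons all lines move towards 0 when the deposited values are rescaled.

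The effect of genotype was then compared between ventricles. The interaction, the RV difference minus the LV difference, ran from -0.08 for Hspb1 to 0.15 for Hspb7, each with a limma adjusted p that rounds to 1. No gene passed the adjusted p (0.0% of tested genes), with 127 genes at an unadjusted p of at most 0.05. For Hspb3 the interaction was 0.11 with a 95% interval of -0.29 to 0.51, so a ventricle-specific part of that size was not detectable with these samples.

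Cryab and Hspb2 lie next to each other on chromosome 9 and are transcribed away from a shared region. Cryab spans 50751325 to 50756636 on the plus strand and Hspb2 50751078 to 50752354 on the minus strand. They share 1030 bases, because 2 of the 6 annotated Cryab transcripts start inside Hspb2, while the other 4 start 552 bases or more beyond the start of Hspb2. It is not stated whether reads were counted by strand. Reads from the shared stretch therefore cannot be assigned with certainty.

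The ratio of Cryab to Hspb2 within a sample is unaffected by multiplying all values of that sample by a constant, although quantile normalization can change it. It was 16.1, 21.1 and 16.8 in LV WT-PLN, 13.7, 17.6 and 18.6 in RV WT-PLN, 18.5, 15.8 and 24.0 in LV R14del-PLN, and 13.9, 21.9 and 19.5 in RV R14del-PLN. All groups overlapped. In exact two-sided permutation tests the genotype difference of the mean ratio was 1.39 in LV (p = 0.7) and 1.80 in RV (p = 0.5), and the RV minus LV difference was -1.39 in WT-PLN (p = 0.6) and -0.985 in R14del-PLN (p = 0.8). After adjustment over these 4 tests each p was 0.8, and the smallest p that 3 samples against 3 can give is 0.1. Across the 12 samples the Pearson correlation of the pair was 0.435, and it was -0.270 once group means were removed.

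The closest relations among the 6 genes across the 12 samples joined Cryab with Hspb8 (r = 0.914), Cryab with Hspb7 (r = 0.899) and Hspb7 with Hspb8 (r = 0.853). These values are descriptions on the log2(TPM + 1) scale, and the samples share their groups and scaling. With group means removed they were 0.919, 0.819 and 0.766. LV R14del-PLN replicate 3 was the highest sample for all 3 genes, and without it the correlations over 11 samples were 0.860, 0.864 and 0.825. Hspb1 and Hspb3 had a negative correlation of -0.292, and -0.296 with group means removed. Within groups, Hspb1 varied most, with a pooled SD of 0.33 (log2), larger than that of 89.4% of the 500 genes nearest to it in level. Hspb3 had a pooled SD of 0.14, larger than that of 11.4% of its 500 nearest genes.

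Over the 12 samples and among the 6849 genes that averaged 5 TPM or more, the genes most like Cryab were Pacs2, Ckm (muscle creatine kinase) and S100a1 (a calcium-binding protein of heart muscle), with r from 0.956 to 0.959. For Hspb7 they were Mrps18a (a mitochondrial ribosomal protein), Nqo1 (a quinone reductase) and Tcta, with r from 0.963 to 0.978, and for Hspb8 Tnnc1 (cardiac troponin C), Snapc5 and 6030419C18Rik, with r from 0.943 to 0.954. Hspb2 was most like Acaa1a (a peroxisomal thiolase), Rps14 and Rps10 (both ribosomal proteins), with r from 0.953 to 0.964. Hspb1 was most like Mkrn1, Id1 (an inhibitor of DNA binding) and Snx3 (a sorting nexin), with r from 0.943 to 0.959. Hspb3 was most like Nme6, Nkain1 and Dcakd, with lower correlations of 0.895 to 0.927.

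Other genes of the family and of the heat shock response were examined as lists, and none of their tested genes was called in any of the 4 group comparisons. Of 5 further family members listed, 2 passed the filter. Hspb6, which encodes HSP20, a cardiac target of cyclic AMP signalling, had a mean of 426 TPM, between Hspb7 and Hspb8. It differed by -0.06 in LV and -0.08 in RV between genotypes, and by -0.31 in WT-PLN and -0.33 in R14del-PLN between ventricles. Both tested genes of this list were below 0 in each of the 4 comparisons.

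The largest list held 18 chaperones and co-chaperones of the heat shock response, all of them tested. In LV all 18 were lower in R14del-PLN, as were 71.7% of tested genes, with a median of -0.31 against -0.09 for all genes. Of the 18, 5 had an unadjusted limma p of at most 0.05, as had 9.6% of tested genes. In RV 14 of 18 were lower, as were 50.9% of tested genes, with a median of -0.20 against -0.0034 for all genes. There 3 had an unadjusted limma p of at most 0.05, as had 6.22% of tested genes. Between ventricles, 17 of 18 were lower in RV in WT-PLN, where 85.9% of all genes were lower, and 14 of 18 in R14del-PLN, where 70.3% were. The medians of -0.20 and -0.11 stood beside -0.17 and -0.08 for all genes, so these counts were near the background. The most abundant of the list was Hsp90ab1, a constitutive HSP90, at a mean of 452 TPM, which differed by -0.31 in LV and -0.20 in RV between genotypes.

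Dnajb1, the HSP40 that supplies HSP70 with clients, had the smallest p of this list. It was at 4.57, 14.6 and 13.8 TPM in LV WT-PLN and 4.17, 11.5 and 11.4 TPM in RV WT-PLN, against 3.45 to 4.30 TPM in LV R14del-PLN and 3.03 to 3.52 TPM in RV R14del-PLN. Both WT-PLN samples numbered 1 were thus close to the R14del-PLN samples and far from the other WT-PLN samples. The difference was -1.18 (limma adjusted p 0.266) in LV and -1.14 (adjusted p 0.458) in RV. Without both samples numbered 1 it was -1.66 (limma adjusted p 5.49e-05) in LV and -1.56 (adjusted p 0.00011) in RV. The WT-PLN samples then left were at 14.6 and 13.8 TPM in LV and 11.5 and 11.4 TPM in RV. As the samples left out were the lowest of WT-PLN, leaving them out widened the difference and narrowed the spread. These adjusted p-values are therefore no independent support.

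Hspa1a and Hspa1b, the stress-inducible HSP70 genes, are named here after their values were seen. They are near-identical neighbours, so the split of reads between them is uncertain. Hspa1a was at 1.42, 18.4 and 9.92 TPM in LV WT-PLN and 0.942, 18.6 and 3.96 TPM in RV WT-PLN, against 0.513 to 1.08 TPM in all R14del-PLN samples. Hspa1b was at 0.713, 24.6 and 10.4 TPM in LV WT-PLN and 0.600, 19.1 and 4.67 TPM in RV WT-PLN, against 0.426 to 0.975 TPM in R14del-PLN. In both ventricles replicate 2 of WT-PLN was the highest, replicate 3 followed, and replicate 1 was at or near the R14del-PLN level. Neither gene was called with all samples, and the Hspa1a difference in LV was -1.99 with an adjusted p of 0.366 in limma.

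**Figure D4:**
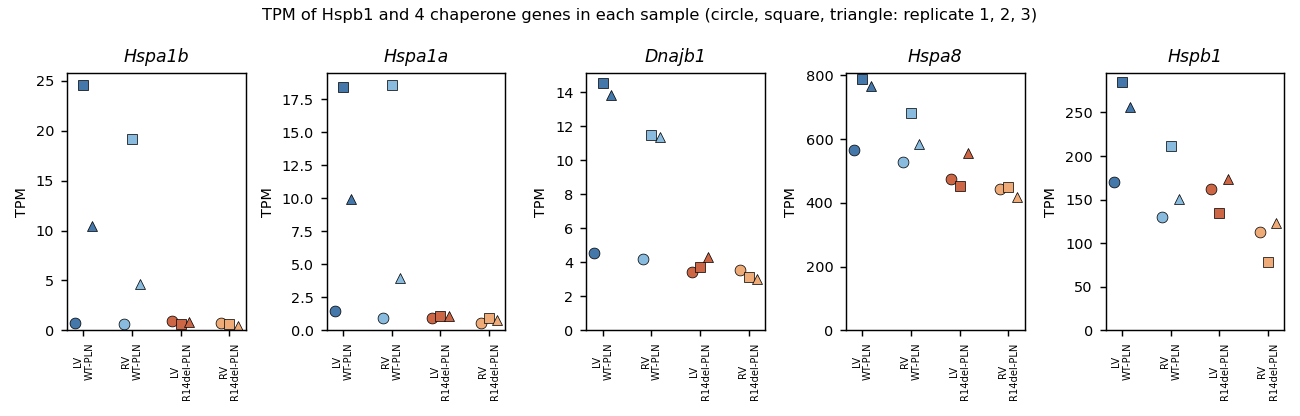
TPM (y axes, from 0) of Hspa1b, Hspa1a, Dnajb1, Hspa8 and Hspb1 in the 3 samples of each group (x axes), with circles, squares and triangles for replicates 1, 2 and 3. The circle of WT-PLN lies lowest of its group in both ventricles for all 5 genes, at 4.57 and 4.17 TPM for Dnajb1.

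Without both WT-PLN samples numbered 1, limma called 5 of the 18 genes lower in R14del-PLN in LV, namely Dnajb1, Hspa1a, Hspa1b, Dnaja1 and Hsph1, and 4 in RV, the same genes without Hsph1. Over all tested genes the number called then rose from 65 to 230 in LV and from 34 to 88 in RV. The samples left out were the lowest of WT-PLN in both ventricles for all 5 genes, so leaving them out widened these differences. Across the 12 samples the correlation of Hspb1 with the 18 genes had a median of 0.692 and ran from -0.125 for Hspd1, the mitochondrial HSP60, to 0.895 for Serpinh1, the collagen chaperone HSP47. It was 0.5 or more for 13 of the 18 and below 0 for 2. For Dnajb1 it was 0.795 and for Hspa1a 0.792, and with group means removed 0.716 and 0.760. The genotype differences of Hspb1 and of these chaperones were larger without the WT-PLN samples numbered 1, the same samples in which the Y chromosome genes were near 0, and what sets them apart was not tested.

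Of 12 listed partners, clients and autophagy factors, 11 were tested. Hspa8, the constitutive HSC70 that drives chaperone-assisted autophagy with Hspb8 and Bag3, was both the most abundant and the one with the smallest p. It was at 567, 789 and 766 TPM in LV WT-PLN and 474, 454 and 556 TPM in LV R14del-PLN, and at 529, 683 and 586 TPM in RV WT-PLN and 445, 450 and 417 TPM in RV R14del-PLN. All R14del-PLN samples were below all WT-PLN samples of the same ventricle, as were 8.47% of tested genes in LV and 5.79% in RV. The difference was -0.50 (limma adjusted p 0.222) in LV and -0.45 (adjusted p 0.468) in RV. The samples numbered 1 were the lowest WT-PLN samples for Hspa8. Without both of them the difference was called in LV at -0.66 (limma adjusted p 0.0457), and leaving them out could only widen it. The list had a median of -0.19 in LV with 9 of 11 below 0, where all tested genes had -0.09 and 71.7% below 0. In RV its median was -0.11 with 7 of 11 below 0, against -0.0034 and 50.9% for all tested genes.

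Of 6 heat shock factors and regulators, 4 were tested. The most abundant was Hsbp1, a regulator that binds heat shock factor trimers, at a mean of 59.6 TPM, with a genotype difference of -0.06 in LV and -0.07 in RV. Hsf1, the main activator of the heat shock response, had the smallest p of the list. It was at 11.4 to 12.3 TPM in LV WT-PLN, 8.72 to 9.55 TPM in RV WT-PLN, 10.3 to 13.0 TPM in LV R14del-PLN and 8.40 to 8.90 TPM in RV R14del-PLN. Hsf1 was lower in RV without overlap in both genotypes, as were 25.2% of tested genes in WT-PLN and 8.72% in R14del-PLN. Its RV minus LV differences were -0.34 in WT-PLN and -0.36 in R14del-PLN (limma adjusted p 0.268 and 0.711). Its genotype differences were -0.07 in LV and -0.09 in RV.

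Of 10 kinases that phosphorylate HSPB1 or CRYAB or act above those that do, 9 were tested. The most abundant was Mapkapk2, the kinase of HSPB1 downstream of p38, at a mean of 84.4 TPM, with genotype differences of -0.09 in LV and 0.03 in RV. Mapk12, which encodes p38 gamma of muscle, had the smallest p of this list, at 9.53 ± 0.339 TPM in LV WT-PLN and 7.41 ± 0.0284 TPM in RV WT-PLN (SD, n = 3 each). Its ventricle difference in WT-PLN was -0.32, with an adjusted p of 0.305 in limma. The median of the list was -0.06 in LV and 0.03 in RV between genotypes, against -0.09 and -0.0034 for all tested genes. In RV against LV 8 of 9 genes were below 0 in both genotypes. So were 85.9% of tested genes in WT-PLN and 70.3% in R14del-PLN.

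Markers of other cell types moved with some of these comparisons. Their counts stand beside all tested genes, of which 71.7% in LV and 50.9% in RV were below 0 between genotypes. Between ventricles 85.9% were below 0 in WT-PLN and 70.3% in R14del-PLN. The medians of all genes in these 4 comparisons were -0.09, -0.0034, -0.17 and -0.08. The 5 red cell markers summed to 2087 to 2316 TPM in LV WT-PLN, 1461 to 1736 TPM in RV WT-PLN, 1093 to 2142 TPM in LV R14del-PLN and 956 to 1368 TPM in RV R14del-PLN, and all 5 were below 0 in all 4 comparisons. The 5 endothelial markers, from cells that also express Hspb1, summed to 88.8 to 114 TPM in LV WT-PLN and 66.5 to 80.9 TPM in RV WT-PLN, and to 89.3 to 121 TPM in LV R14del-PLN and 75.4 to 105 TPM in RV R14del-PLN. All 6 fibroblast markers were below 0 in R14del-PLN in both ventricles, with medians of -0.36 in LV and -0.13 in RV, and they summed to 301 to 529 TPM in LV WT-PLN, 315 to 415 TPM in RV WT-PLN, 245 to 383 TPM in LV R14del-PLN and 287 to 393 TPM in RV R14del-PLN. Of the 6 smooth muscle markers, 5 were below 0 in R14del-PLN in LV (median -0.60) and 1 in RV (median 0.26), and all 6 were below 0 in RV against LV in WT-PLN (median -0.76). This list summed to 175 to 396 TPM in LV WT-PLN, 150 to 190 TPM in RV WT-PLN, 152 to 241 TPM in LV R14del-PLN and 154 to 206 TPM in RV R14del-PLN, with LV WT-PLN replicate 3 the highest sample. The 4 tested atrial markers were lower in the LV of R14del-PLN (median -2.61) and, in WT-PLN, lower in RV than in LV (median -0.78). In R14del-PLN, 3 of the 4 were higher in RV and 1 was lower (median 2.26). Between genotypes in RV, 2 were higher and 2 lower (median 0.07). The atrial sums were highest in LV WT-PLN replicate 3, RV WT-PLN replicate 2 and RV R14del-PLN replicate 2, at 1296, 871 and 521 TPM. Of the 5 macrophage markers, 4 were below 0 in R14del-PLN in each ventricle, with medians of -0.17 in LV and -0.03 in RV. Cd163 was at 5.23 to 7.45 TPM in LV WT-PLN and 2.82 to 4.25 TPM in LV R14del-PLN. In RV it was at 6.56 to 7.96 TPM and 2.50 to 4.54 TPM. It was lower without overlap in both ventricles, as were 8.47% of tested genes in LV and 5.79% in RV, and was not called. None of the markers of any list was at 0 in every sample. The part of these cells in the differences of the 6 genes was not tested.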

How the data were processed

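RNA from 12 mouse heart samples was sequenced from polyA stranded libraries. The authors deposited 1 table per sample with a value per gene in TPM, which sums to 1000000 and holds no depth, so counting errors and detection floors are unknown and zeros are called listed at 0. The study names CLC Genomics Workbench and GRCm38 for mapping, and the program and strand setting behind the TPM values are not given in the sources used here.

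Genotype, ventricle and number came from the labels. The limma package (version 3.58.1, R 4.3.3; moderated variances with an intensity trend, 4 group means, 8 residual and 5.15 prior degrees of freedom) was fitted on log2(TPM + 1) for genes averaging 0.5 TPM or more, with Benjamini-Hochberg adjustment, and was tested on simulated data. Fold changes on this scale understate the change of low genes. Intervals cover 95%. Deviations from group means were correlated between same-numbered LV and RV samples at 0.321 to 0.657 in WT-PLN and at 0.0542 to 0.389 in R14del-PLN. The rule for pairs was that every value exceeded 0.1, which held in WT-PLN and not in R14del-PLN. The main limma fit and the permutation tests paired no samples in either genotype. Pairing entered only through the replicate block and the mean of both ventricles. Python 3.11.15 with pandas 2.3.3, numpy 2.4.6, scipy 1.17.1 and matplotlib 3.10.9, and BLAST 2.17.0 for copies of at least 95% identity over 80% of the shorter transcript, were used for the rest. Coordinates are of GRCm38 (GENCODE annotation), and promoters were matched by symbol for 4 of the 6 genes.

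The members and lists were chosen with earlier results of these data known. Named besides the members were, in each list, called genes, the most abundant gene and the one with the smallest p in a group comparison, and the 3 genes most correlated with each member. Hspa1a, Hspa1b, Dnaja1, Hsph1, Serpinh1 and Hspd1 lie outside this rule and were named after their values were seen. Alternatives were pseudocounts of 0.5 and 0.1, filters at 1 and 5 TPM and none, the compared groups alone, no trend, 3 scalings, replicate blocks, other fold thresholds, and samples left out. The mean of both ventricles was added after seeing the data.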

Additional observations from a re-analysis of the deposited data

How the results depend on the processing

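Under the alternatives for the 5 comparisons, the number of the 6 genes called stayed at 0, except for 1 (Hspb3) in RV between genotypes without mitochondrially encoded genes, and for the mean of both ventricles it was 1 (Hspb1) without WT-PLN replicate 1. The partner list had 1 call without LV WT-PLN replicate 1 and 1 without both WT-PLN samples numbered 1, and the list of heat shock response chaperones had 1 and 9. The other lists had 0 calls under every alternative. With the replicate block, 0 of the 6 genes were called in every comparison, while 12 genes of the whole table were called in RV against LV in WT-PLN, against 0 without it, and no other call of the 6 genes changed. Blocked differences of the Cryab to Hspb2 ratio were 1.39, 1.80, -1.39 and -0.985, with a smallest exact sign-flip p of 0.25. Over all genes, calls ranged from 19 to 230 in LV and 14 to 88 in RV between genotypes, and up to 1 in R14del-PLN between ventricles and 2 for the interaction, against 0.

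Reversed signs fell on differences near 0, and the cause was not tested. After quantile normalization these were Cryab in LV (0.000668), Hspb7 in LV (0.00142), Cryab in RV (0.046), Cryab in the mean of both ventricles (0.024), the Hspb2 interaction (-0.043) and the ratio in R14del-PLN between ventricles (0.0787). After upper quartile scaling they were Cryab in LV (0.031), Hspb7 in LV (0.095), Cryab in the mean (0.015) and the interactions of Cryab (-0.032), Hspb2 (-0.070) and Hspb8 (-0.083). Without mitochondrially encoded genes it was Cryab in RV (0.017). Without both WT-PLN samples numbered 1 they were Hspb8 in RV (-0.016) and its interaction (-0.037). With single samples left out, LV differences ran from -0.28 to 0.048 for Cryab, -0.16 to 0.044 for Hspb7 and -0.13 to 0.16 for Hspb8, and RV differences from -0.11 to 0.054, -0.047 to 0.28 and -0.016 to 0.14. Interactions ran from -0.075 to 0.25 for Cryab, -0.23 to 0.14 for Hspb1, -0.081 to 0.11 for Hspb2, -0.021 to 0.30 for Hspb7 and -0.10 to 0.19 for Hspb8. In the mean of both ventricles the ranges were -0.15 to 0.0083 for Cryab, -0.0079 to 0.16 for Hspb7 and -0.063 to 0.12 for Hspb8. The ratio ran from -0.902 to 3.22 in LV and from 0.0858 to 4.05 in RV between genotypes, from -2.37 to 0.169 between ventricles in WT-PLN and from -2.81 to 1.31 in R14del-PLN. With 3 samples a group and no depth in TPM, differences of the size of these intervals were not detectable.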
